A study of Equus caballus with 18 samples.

Results

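Skeletal muscles of a horse were compared as groups A and B, that had been formed from their own transcript counts. The 18 of 18 muscles measured in the series were all members, 9 in group A and 9 in group B, each from the same male Jeju horse, a breed of Jeju island in South Korea, and each as 1 RNA-Seq library. Group A held the triceps brachii, biceps brachii, infraspinatus, supraspinatus, rhomboideus, trapezius, extensor digitorum communis, longissimus and biceps femoris caudal. Group B held the omohyoideus, extensor carpi radialis, semitendinosus, gluteus superficialis, the vertebral and middle parts of the biceps femoris, the extensor digitorum longus, extensor digitorum lateralis and pectoralis major. The groups were chosen by clustering of the same counts that are compared below. Every A vs. B difference in expression is therefore a description of the split, given without a test of the split itself. The muscles of a group differ in anatomy and are not repeats of 1 muscle, the labels name no treatment, and nothing separates a property of the breed from one of the animal.

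A skeletal muscle is a mixture of slow fibres, which use oxidative metabolism and resist fatigue, and fast fibres, which rely more on glycolysis. The fibre types differ in their myosin heavy chains, troponins, calcium pumps and calcium-binding proteins. Signalling through cyclic AMP and protein kinase A, Notch receptors and nitric oxide is known to adjust muscle mass, metabolism and blood supply. In whole muscle, a lower level may reflect fewer cells of a type or less RNA per cell, and these cannot be told apart.

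The libraries held 33537488 to 39254160 counts in group A, with a median of 37006264, and 31395013 to 50508515 in group B, with a median of 38915967. The most abundant gene took 24.1 to 33.9% of the counts of a group A library and 24.6 to 39.1% of a group B library. Levels below are counts scaled to a common library size (CPM) by the trimmed mean of M-values (TMM) method, whose factors ran from 0.822 to 1.16 in group A and from 0.833 to 1.41 in group B. Symbols were available for 51 genes, and all other genes were described by identifier or by count. The 51 were genes of a heat map of the study, which chose part of them as DEGs of these same samples. None of the marker genes of endothelial, immune, fat, nerve or fibroblast cells in the lists used had a symbol here, so the make-up of the samples by cell type was not examined.

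The position of a muscle in the body was not used to form the groups, and it could be set against them. The study had already described group A muscles as usually anterior and group B muscles as mostly posterior. The test below uses the same muscles, so it puts a value on that description and is not independent evidence. Group A had 1 hindlimb muscle and 8 muscles from elsewhere, of which 5 were of the forelimb, 2 of the shoulder girdle and 1 of the trunk. Group B had 6 hindlimb muscles and 3 from elsewhere, namely the extensor carpi radialis of the forelimb, the pectoralis major of the girdle and the omohyoideus of the neck. The odds ratio was 13.3, with a 95% interval of 1.0 to 820 (two-sided Fisher's exact test, exact p = 0.0498). The call rested on where 2 muscles were placed. The label of the extensor digitorum lateralis does not say which limb it came from, and it was taken as the hindlimb muscle from the study's body map. Counted outside the hindlimb it gave an odds ratio of 8.69 and an exact p of 0.131, a setting added after the data were seen. The longissimus, a long muscle of the back, gave an odds ratio of 6.18 and an exact p of 0.153 when counted with the hindlimb muscles. The exact p was 0.0256 without the 3 parts of the biceps femoris, which are neighbouring pieces of 1 muscle. That setting also took away the only hindlimb muscle of group A. Its odds ratio was therefore infinite, with the lower end of the interval at 0.988. With only forelimb and hindlimb muscles the exact p was 0.0291, with the lower end of the interval at 0.999. With 1 muscle other than the biceps femoris caudal left out, the odds ratio was 11.1 to 18.4, with the lower end of the interval at 0.793 to 1.27. Without the biceps femoris caudal, group A held no hindlimb muscle. The odds ratio was then infinite, with the lower end of the interval at 1.66.

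Of 12738 genes tested with edgeR, 469 were upregulated in group A (3.68%) and 362 were downregulated (2.84%), which made 831 differentially expressed genes (DEGs, 6.52%). The larger number on the side of group A turned without the extensor digitorum communis (506 up, 513 down) and without both digital extensors (449 up, 456 down). A DEG was defined by an adjusted p under 0.05 together with a log2 fold change (log2FC) of more than 0.58 in either direction, where a positive log2FC is higher in group A. The adjusted p alone was passed by 1779 genes (14.0%). The rule that made the groups used this contrast, so the counts measure the depth of the split and are no evidence that it exists. The median absolute log2FC was 0.77 for the upregulated and 0.82 for the downregulated DEGs. A log2FC beyond 1 was reached by 96 upregulated and 97 downregulated DEGs, and one beyond 2 by 11 and 18. For 245 genes (1.92%) the 9 values of one group did not overlap the 9 of the other, with group A above group B for 162 and below it for 83. The plot of log2FC against level shows that most DEGs had a log2FC within 1 of 0 and that the DEGs at 1000 CPM or more were on the side of group A.

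**Figure D1:**
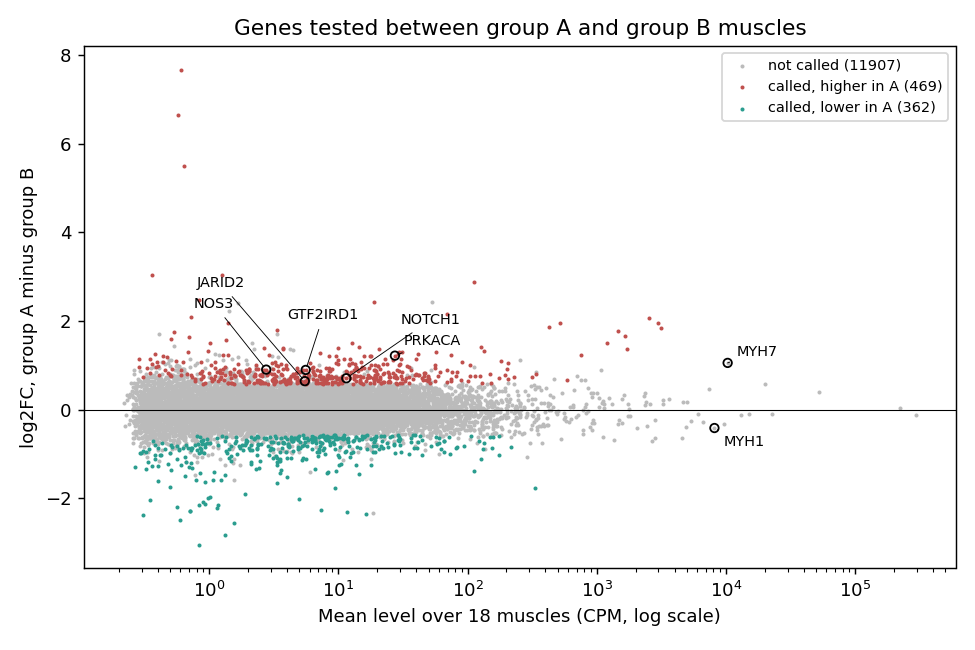
Each point is a gene, with its mean level over 18 muscles (CPM, log scale) on the horizontal axis and its log2FC, group A minus group B, on the vertical axis. The 469 upregulated genes are red, the 362 downregulated genes are green, and 7 named genes are circled.

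The direction of the DEGs changed with abundance. Below 1 CPM, 50 genes were upregulated and 75 downregulated of 2269 tested (5.51% called). Between 1 and 10 CPM the numbers were 221 and 179 of 6436 (6.22%), and between 10 and 100 CPM they were 167 and 95 of 3594 (7.29%). From 100 to 1000 CPM, 24 were upregulated and 13 downregulated of 380 (9.74%). At 1000 CPM or more, 7 of 59 genes were called (11.9%), and all 7 were upregulated. Their log2FC lay between 1.36 and 2.06, and for 5 of the 7 the groups did not overlap, where this held for 27.1% of all upregulated DEGs and 1.92% of all genes tested. The 7 were picked as DEGs, and the count is a description. None of the 7 had a symbol in the sources used here. Together they took 1.33 to 5.50% of the counts of a group A library, with a median of 1.96% (2.23% ± 1.28, SD, n = 9). In group B they took 0.362 to 1.01%, with a median of 0.658% (0.685% ± 0.201, SD, n = 9). The lowest group A muscle was thus above the highest group B muscle in this sum. The biceps femoris caudal, the only hindlimb muscle of group A, had the highest share, and the next group A muscle was at 2.35%.

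A few genes were counted in one group and almost absent from the other. Over the 25239 genes of the table, 3 had at least 10 counts in every group A library and no more than 3 in any group B library, and 0 genes showed the opposite pattern. The gene ENSECAG00000013861 had 35 to 58 counts in group A libraries, with a median of 42. In group B it had no count in 8 libraries and 1 count in the pectoralis major. Its level was 1.22 CPM ± 0.260 (SD, n = 9) in group A, at least 16.0-fold higher than a floor of 3 counts in each group B library. The gene ENSECAG00000018234 had 25 to 57 counts in group A, with a median of 41, and no count in 8 group B libraries. Its 3 counts in group B were again in the pectoralis major. Its level in group A was 1.14 CPM ± 0.278 (SD, n = 9), at least 15.0-fold higher than the same floor. The third such gene had 10 to 25 counts in group A, with a median of 19, and 2 counts in all of group B, both in the omohyoideus; it was too low to enter the fit. The biceps femoris caudal, extensor digitorum communis and all other group A muscles carried these transcripts, while the vertebral and middle parts of the biceps femoris had none. These genes lie near 1 CPM, where counting error is large, and the floors cover counting error only.

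The genes lowest in group A relative to group B were present in both groups. The gene ENSECAG00000014997 had 3 to 12 counts in group A, with a median of 5, and 18 to 132 in group B, with a median of 58 (log2FC -3.05 ± 0.41, SE). Its highest group B level was in the semitendinosus. The gene ENSECAG00000017415 had 3 to 25 counts in group A, with a median of 13, and 41 to 238 in group B, with a median of 69 (log2FC -2.82 ± 0.40, SE). Its highest level was in the biceps femoris vertebral. For both genes the groups did not overlap. These 4 identifiers had the largest log2FC in each direction among unnamed DEGs without overlap and with 10 counts or more in all libraries of the group with the higher level.

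Among named genes, those annotated to the regulation of muscle adaptation held all of the DEGs. Of 8 genes of this set, 5 were called, all 5 were upregulated in group A, where 3.68% of all genes tested were, and all 8 had a positive log2FC with a median of 0.89, where the median over all genes tested was 0.00016. The study picked the set as upregulated genes of these same samples, so neither its number of calls nor its direction is independent evidence, and nothing is read from the share. With region as a covariate NOTCH1 (log2FC 0.71) and JARID2 (0.54) lost their calls, and in muscles outside the hindlimb GTF2IRD1 (0.75), NOS3 (0.94) and JARID2 (0.58) lost theirs. The other 43 named genes included no DEG with all muscles in edgeR. Among them MYOM2, an M-band protein, was called by DESeq2 (log2FC 0.66) and by edgeR without the biceps brachii (0.75) or the extensor carpi radialis (0.75). PRKACA, which encodes a catalytic subunit of protein kinase A, was at 29.8 CPM in the lowest group A muscle, the biceps brachii. Its median in group A was 41.7 CPM and its highest level 48.0 CPM, in the supraspinatus. In group B, PRKACA ran from 11.8 CPM in the extensor digitorum lateralis through a median of 16.9 to 19.7 CPM in the biceps femoris vertebral. Every group A muscle was above every group B muscle, with means of 38.3 CPM ± 6.42 and 16.5 CPM ± 2.64 (SD, n = 9 each) and a log2FC of 1.21 ± 0.12 (SE). Within each group the highest muscle was 1.61-fold (A) and 1.67-fold (B) above the lowest, less than the 2.32-fold difference between groups. PRKACA was the only one of the 51 named genes whose groups did not overlap, a share near the 1.92% of all genes tested.

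GTF2IRD1, a transcription factor known for its part in the slow fibre programme, had 5.27 CPM in the lowest group A muscle, a median of 6.63 and 10.4 CPM in the highest, the trapezius. In group B it had 3.06, 3.28 and 5.81 CPM, the highest value being that of the omohyoideus. Its log2FC was 0.89 ± 0.16 (SE), and 8 of 9 group A muscles were above all group B muscles. NOS3, the endothelial nitric oxide synthase, ran from 1.71 CPM in the trapezius through a median of 3.33 to 6.03 CPM in the extensor digitorum communis. In group B, NOS3 ran from 1.30 CPM through a median of 1.91 to 3.11 CPM in the extensor digitorum longus (log2FC 0.90 ± 0.21, SE). The groups overlapped for NOS3, with 6 of 9 group A muscles above all of group B.

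NOTCH1, a receptor that helps to keep muscle stem cells undifferentiated, ran from 9.85 CPM in the biceps femoris caudal through a median of 13.1 to 20.9 CPM in the supraspinatus. In group B it ran from 5.67 CPM in the extensor digitorum lateralis through a median of 8.74 to 11.7 CPM in the semitendinosus (log2FC 0.70 ± 0.17, SE). The group A muscle lowest in NOTCH1 was its only hindlimb muscle, between the vertebral part of the same muscle at 11.5 CPM and the middle part at 5.82 CPM. JARID2, a cofactor of the Polycomb repressive complex, had 4.86 CPM, a median of 6.82 and 8.74 CPM in group A, against 3.06, 4.53 and 5.54 CPM in group B (log2FC 0.64 ± 0.15, SE). For JARID2, 7 of 9 group A muscles were above all of group B. JARID2 lost its call in 4 of 26 settings and NOTCH1 in 2. The plot of regulators by muscle shows a gap between groups for PRKACA and overlapping ranges for the other genes.

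**Figure D2:**
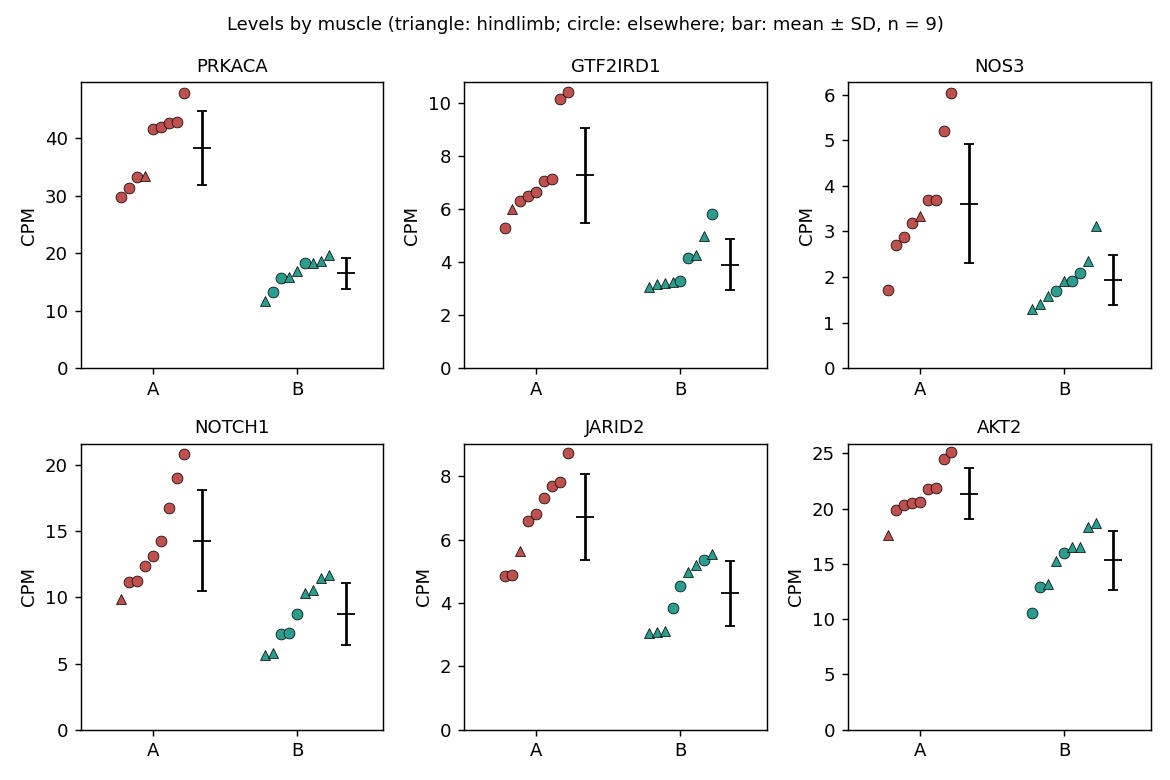
Levels (CPM) of 6 genes in the 9 muscles of group A (red) and the 9 of group B (green). Triangles are hindlimb muscles, circles are other muscles, and the bar gives the mean ± SD. PRKACA in group A lies between 29.8 and 48.0 CPM, above the 11.8 to 19.7 CPM of group B.

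The remaining genes of the adaptation set were not called. MYH7, the slow (type I) myosin heavy chain, had 5751 CPM in the triceps brachii, a median of 11252 CPM and 25834 CPM in the trapezius. In group B it had 861 CPM in the extensor carpi radialis, a median of 7680 CPM and 12909 CPM in the extensor digitorum lateralis (log2FC 1.05 ± 0.40, SE). ATP2A2, the calcium pump of slow fibres, had a median of 1115 CPM (633 to 3137) in group A and 709 CPM (310 to 1467) in group B, a log2FC of 0.89 ± 0.32 (SE). Both were past the thresholds with DESeq2 (log2FC 1.05 and 0.89), and ATP2A2 also in edgeR fits without the triceps brachii or without the omohyoideus (0.98 and 1.07). FBXO32, a ubiquitin ligase of muscle atrophy, had a log2FC of 0.60 ± 0.22 (SE), and without the extensor carpi radialis, the highest group B muscle for it, 0.80 and a call. Its log2FC was 0.44 with region as a covariate and 0.17 in muscles outside the hindlimb.

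No named gene of the fibre type lists was called in edgeR with all muscles. With 6.52% of all genes called, lists this short are near the background at 0 calls, and nothing is read from their counts. Of the fast twitch contractile list, 9 of 16 genes were named and 0 were called, with a median log2FC of -0.05. Of the slow twitch list, 9 of 17 were named and 0 were called, with a median of 0.17. The median of the slow list ran from -0.04 without the rhomboideus to 0.46 without the extensor digitorum lateralis, and that of the fast list turned to 0.03 with region as a covariate. Of the slow list, DESeq2 called MYH7 and ATP2A2, and of the fast list, FHL3 was called in edgeR without the gluteus superficialis (0.60). MYH1, the fast type IIx myosin heavy chain, had a log2FC of -0.42 ± 0.85 (SE), the largest standard error of the named genes. It was -0.01 without the extensor carpi radialis and -1.003 in muscles outside the hindlimb. Its lowest level in group A was 132 CPM in the rhomboideus, followed by 162 CPM in the trapezius and 307.6 CPM in the extensor digitorum communis, while the median was 6622 and the highest was 15153 CPM in the longissimus. In group B its lowest level was 297 CPM in the omohyoideus, followed by 481 CPM in the extensor digitorum lateralis, and the highest was 28060 CPM in the extensor carpi radialis. MYH1 thus spanned 115-fold within group A and 94.5-fold within group B, and each group held muscles at both ends. MYH7 spanned 4.49-fold in group A and 15.0-fold in group B. Myosin heavy chain genes resemble one another, and reads may have been split between them in counting.

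Other contractile genes were not called either. TNNI2 and TNNT3, the fast troponins I and T, had log2FC of -0.68 ± 0.35 and -0.64 ± 0.35 (SE), and ACTN3, a Z-disc protein of fast fibres, 0.32 ± 0.50 (SE). Outside the hindlimb TNNI2 had -0.39 and ACTN3 had 0.90, and ACTN3 had 0.02 without the longissimus. TNNC1 and TNNT1, the troponins C and T of slow fibres, had -0.23 ± 0.30 and -0.03 ± 0.34 (SE), and outside the hindlimb 0.17 and 0.13. CASQ2, the cardiac and slow-fibre calsequestrin, had a median of 8.18 CPM (2.42 to 29.0) in group A and 3.99 CPM (1.92 to 97.6) in group B, with a log2FC of -0.48 ± 0.70 (SE). The sign of its log2FC and the order of its medians thus differed, and the 97.6 CPM were those of the extensor digitorum lateralis. Without that muscle the log2FC of CASQ2 was 0.84, and it was 0.09 outside the hindlimb and 0.70 without both digital extensors. The plot of fibre type genes shows this spread within both groups.

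**Figure D3:**
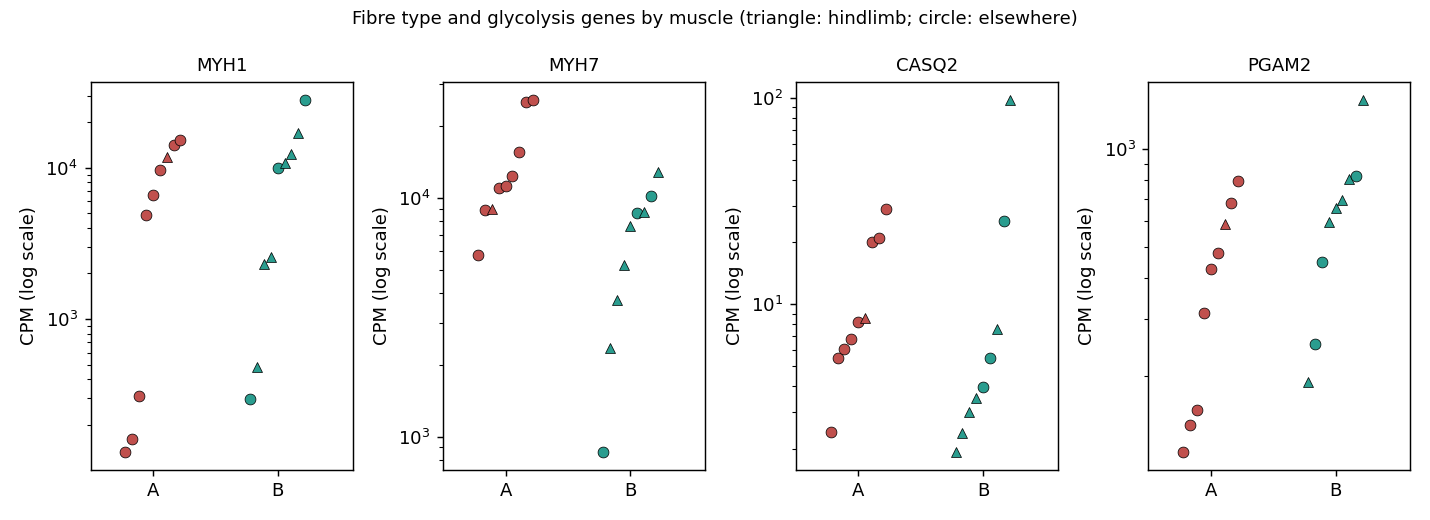
Levels (CPM, log scale) of MYH1, MYH7, CASQ2 and PGAM2 in the 9 muscles of group A (red) and the 9 of group B (green), with triangles for hindlimb muscles. MYH1 runs from 132 to 15153 CPM in group A and from 297 to 28060 CPM in group B, and the ranges overlap for all 4 genes.

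The named metabolic genes were likewise few for a call rate of 6.52%, and their counts are given as a description. The study had listed the named glycolysis genes as DEGs between subgroups of group A. It had listed the named oxidative phosphorylation genes as DEGs between subgroups of group B. They were thus picked for differences inside a group, and nothing is read from their spread or lack of calls about the whole pathways. Of the glycolysis and glycogen list, 10 of 22 genes were named, 0 were called, 8 had a negative log2FC and the median was -0.35. PGAM2, the muscle phosphoglycerate mutase, had a median of 427 CPM (117 to 797) in group A and 658 CPM (191 to 1411) in group B (log2FC -0.67 ± 0.39, SE), and its log2FC was -0.36 with region as a covariate and -0.38 outside the hindlimb. GPI, which opens glycolysis after glucose phosphorylation, had -0.46 ± 0.26 and TPI1, the triosephosphate isomerase, -0.43 ± 0.23 (SE). Of nuclear subunits of oxidative phosphorylation, 8 of 78 were named, 0 were called and the median log2FC was -0.12, turning to 0.02 with region as a covariate and 0.18 outside the hindlimb. NDUFV1, a core subunit of complex I, was one of 2 with a positive log2FC and passed the adjusted p alone, at 117 CPM ± 18.0 in group A and 79.3 CPM ± 24.3 in group B (SD, n = 9 each; log2FC 0.55 ± 0.17, SE). NDUFS7, the other, also a complex I subunit, had 0.10 ± 0.18 (SE).

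Of the insulin signalling list, 3 of 24 genes were named and 0 were called, where 6.52% of all genes tested were. Of the fatty acid oxidation list, 1 of 22 was named. AKT2, a kinase of the insulin pathway, had a median of 20.6 CPM (17.6 to 25.1) in group A and 16.0 CPM (10.6 to 18.7) in group B, a log2FC of 0.48 ± 0.11 (SE), and 8 of 9 group A muscles were above all of group B. The lowest group A value of AKT2 was that of the biceps femoris caudal. IRS2, an adaptor of the insulin receptor, had 0.55 ± 0.18, and its relative IRS1 had 0.38 ± 0.16 (SE). CPT1A, which passes fatty acids into mitochondria, had 0.56 ± 0.14 (SE), and ACSL5, an acyl-CoA synthetase, 0.11 ± 0.17 (SE). AKT2, IRS2 and CPT1A passed the adjusted p but not the fold threshold, and IRS1 and ACSL5 did not pass the adjusted p. Of all genes tested, 14.0% passed the adjusted p, and nothing is read from counts over so few genes. The plot of log2FC over the named genes shows them by list.

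**Figure D4:**
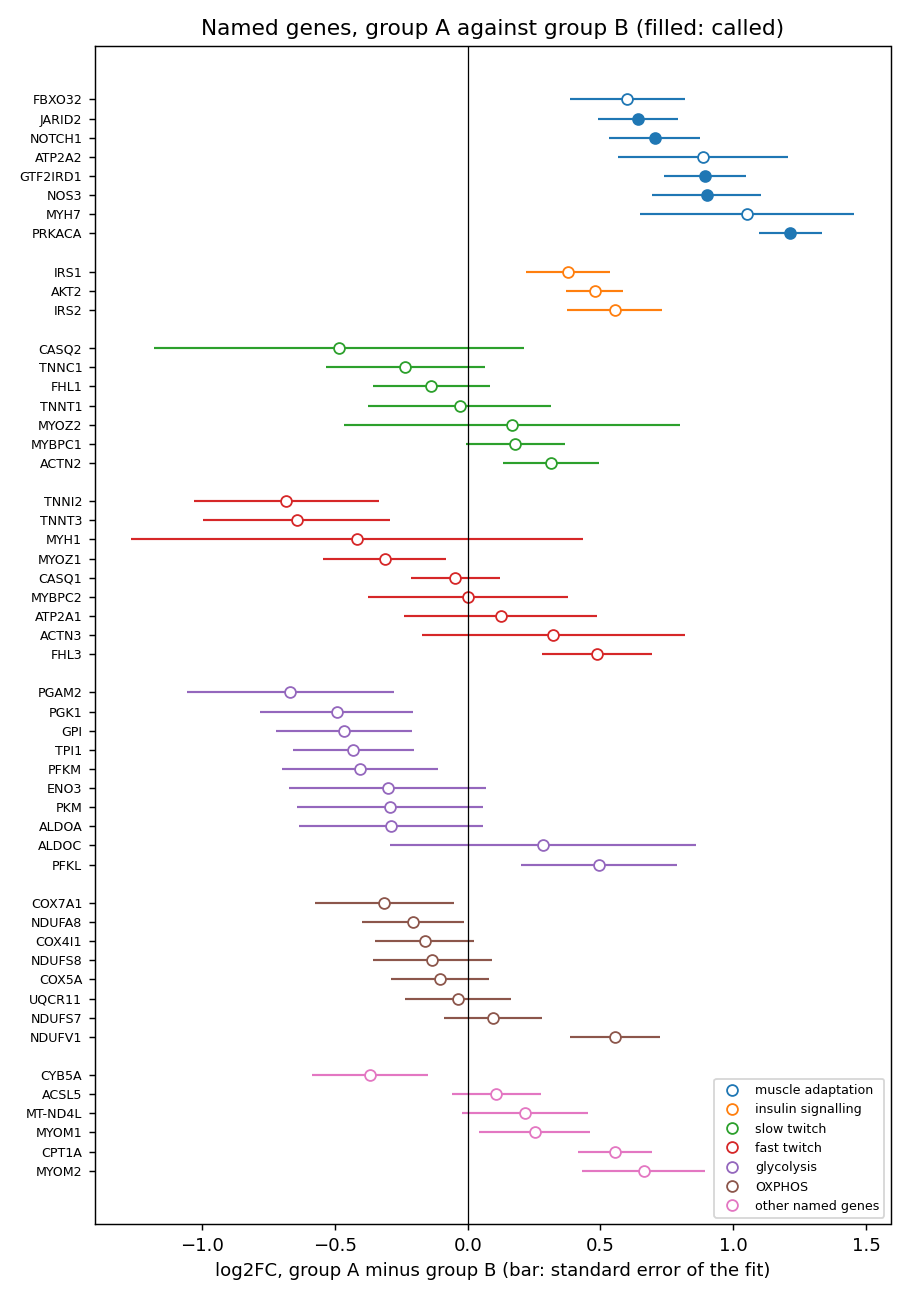
The log2FC, group A minus group B, of 51 named genes, ordered within gene lists shown by colour, with the standard error of the fit as a bar. Filled points are the 5 called genes, with PRKACA the highest at 1.21, and open points are genes not called.

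Neighbouring muscles on opposite sides of the split gave a view of it inside 1 region. The biceps femoris caudal was higher than the biceps femoris vertebral for 431 of the 469 upregulated DEGs (91.9%) and lower for 321 of the 362 downregulated ones (88.7%). Over all genes tested, 48.8% were higher in the caudal part. Against the middle part the shares were 88.5 and 86.7%, with 50.96% of all genes higher in the caudal part. In the forelimb, the extensor digitorum communis was higher than the extensor carpi radialis for 445 (94.9%) and lower for 321 (88.7%), with 50.7% of all genes higher. These muscles were in the fit that chose the genes, and the shares are a description. PRKACA was at 33.4 CPM in the caudal part, 18.7 in the middle part and 19.7 in the vertebral part, and at 31.3 CPM in the extensor digitorum communis against 13.3 in the extensor carpi radialis.

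Each muscle was also placed on a scale from the mean of group B (0) to the mean of group A (1), over DEGs called without that muscle. Group A muscles lay between 0.585 for the extensor digitorum communis and 1.11 for the supraspinatus, and group B muscles between -0.036 for the biceps femoris vertebral and 0.295 for the semitendinosus. Each muscle had helped to form the clusters, so positions apart from the other group follow from the way the groups were made. The biceps femoris caudal was second lowest in group A, and the non-hindlimb muscles of group B lay between hindlimb muscles. The plot of positions gives all 18 muscles.

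**Figure D5:**
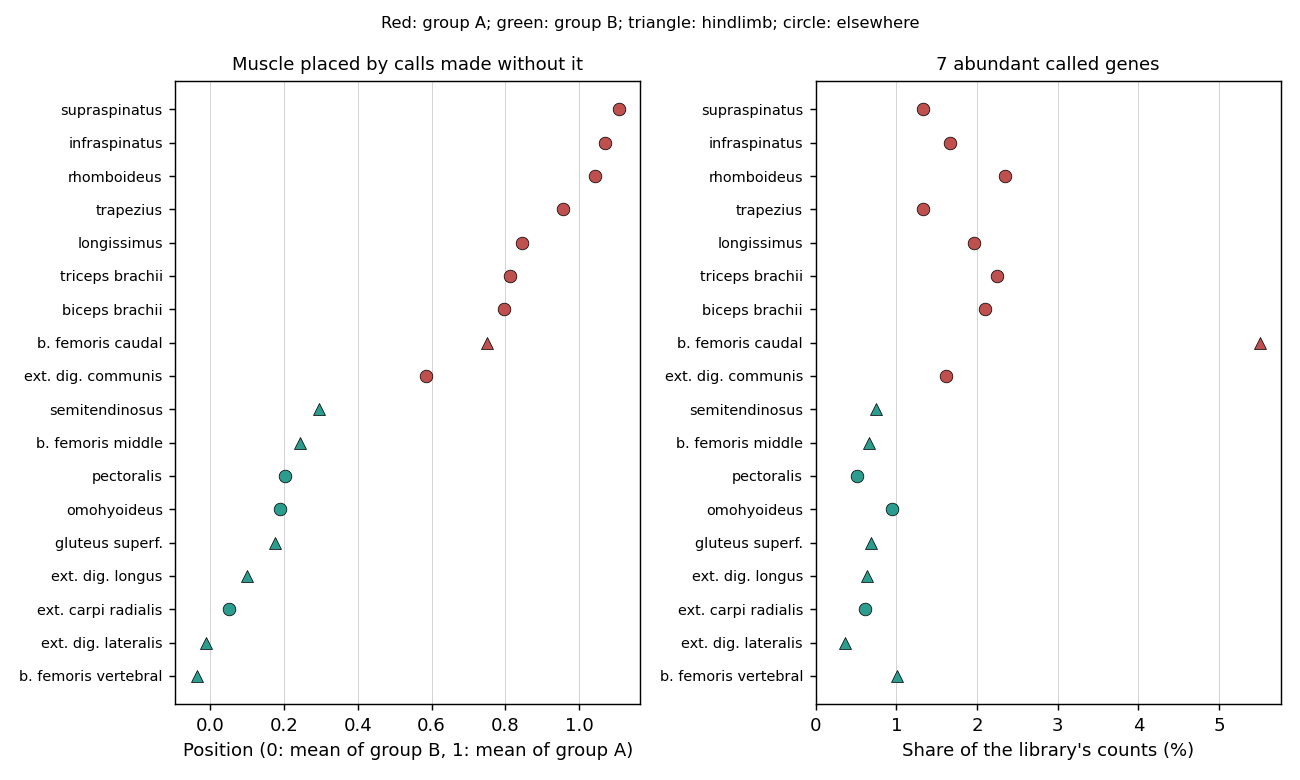
Left, position of each muscle between the mean of group B (0) and of group A (1) over DEGs called without it; right, the share of the counts (%) taken by the 7 abundant upregulated DEGs. Group A (red) lies at 0.585 or above and group B (green) at 0.295 or below on the left, and triangles mark hindlimb muscles.

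Because 6 of 7 hindlimb muscles were in group B, the fit was repeated with region set apart. The DEGs had been called on these same muscles, so the signs and sizes below are a description. Among the 11 muscles outside the hindlimb (8 of group A and 3 of group B), 830 of the 831 DEGs had the same sign, with a median absolute log2FC of 0.82 against 0.79 in all muscles. With region as a covariate, 831 of 831 kept their sign, at a median of 0.77. The number of DEGs was 533 with the covariate (338 of them upregulated, 451 shared with the 831) and 551 outside the hindlimb (341 of them upregulated, 394 shared). PRKACA was called in both, and outside the hindlimb AKT2 (0.73) and CPT1A (0.77) also passed the fold threshold.

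A direct comparison of the 7 hindlimb muscles with the other 11, which the clustering did not define and which was added after the data were seen, gave 1 DEG of 13017 genes tested by edgeR (0.00768%), while 1931 genes had an unadjusted p below 0.05. DESeq2, with 11392 genes tested, called 83 genes, 43 higher and 40 lower in the hindlimb. The DEG was ENSECAG00000024900, at 0.985 to 1.54 CPM in the hindlimb muscles, with a median of 1.22 CPM, and from 0 to 0.0266 CPM elsewhere, with a median of 0. It was present in the biceps femoris caudal at 1.23 CPM and in all 6 hindlimb muscles of group B, so it followed the limb and not the group. It was chosen for description after its values were seen.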

How the data were processed

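RNA was depleted of ribosomal RNA, and libraries were sequenced as paired 101-base reads. The authors aligned reads with STAR 2.5.2b in 2 passes to EquCab2, with Ensembl annotation, and deposited raw counts per gene; the strand setting of the counting is not given in the sources used here. The study's methods formed groups A and B by k-means and hierarchical clustering of counts of genes that differed between pairs of muscles.

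From the deposited counts, genes with low counts were removed (filterByExpr by group), libraries were scaled by TMM, and A vs. B was fitted with edgeR 4.0.16 in R 4.3.3 (quasi-likelihood test, Benjamini-Hochberg adjustment, DEG at adjusted p below 0.05 and absolute log2FC above 0.58). The SE is the absolute log2FC divided by the square root of F. DESeq2 1.42.0, other scalings, filters, a region covariate and left-out muscles were alternatives, and the fit was tested on simulated data. The table pairs identifiers with no symbols. A symbol was given to an identifier when its raw counts equalled, in 4 muscles, those printed for that gene in a heat map of the study; all 51 symbols matched exactly 1 identifier, and 1 further gene is not reported here. The printed counts served only as this key, the other muscles were not compared, and no position or sequence is given.

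For the position of a left-out muscle, DEGs were called without it and TMM was computed over all 18 libraries. Named genes were those with symbols, and unnamed genes were the 2 with the largest log2FC per direction among DEGs without overlap and with 10 counts or more in all libraries of the higher side. The members and gene lists were chosen with earlier results of these data known. Each muscle is 1 library of 1 horse, so p-values measure the spread between muscles only. The floors cover counting error only, and the interval of the odds ratio comes from the placing of the 18 muscles by region and group.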

Additional observations from a re-analysis of the deposited data

Results flagged for a closer look

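Each group's most extreme muscle was tested by the share of the group's range taken by its gap to the next muscle. In 10 of 106 tests the share exceeded Dixon's critical value for 9 samples at the 95% level. Chance alone gives about 1 in 20 if values are normally distributed. The gaps were taken on untransformed values and not on a log scale, so the count cannot be set against that rate. All 10 lay at the high end of their group. In group B, 5 of them fell on the extensor digitorum lateralis: CASQ2 (97.6 CPM, next 25.4, gap 0.755 of the range), MYOZ2, a slow-fibre Z-disc protein (893, next 168.02, 0.823), ACTN2, a sarcomeric actinin (3767, next 2364, 0.603), ALDOC, an aldolase (12.4, next 3.87, 0.702) and PFKL, a phosphofructokinase (26.7, next 15.7, 0.539). Also in group B, CPT1A was highest in the semitendinosus (11.3 CPM, next 8.56, 0.501) and FBXO32 in the extensor carpi radialis (340 CPM, next 194, 0.606). In group A, MYOM2 was highest in the rhomboideus (1876 CPM, next 1096, 0.558) and ACSL5 in the biceps brachii (8.57 CPM, next 4.69, 0.719). The summed share of the 7 abundant upregulated genes was highest in the biceps femoris caudal (5.50%, next 2.35%, 0.755).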

How the results depend on the processing

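The A vs. B count of 831 DEGs fell to 533 with region as a covariate and 551 in muscles outside the hindlimb; fewer muscles enter the second fit, and the cause of the first was not tested. It was 1102 with DESeq2, which was given all 25239 genes of the table in place of the 12738 tested by edgeR. Of the 25239 genes, 2395 had no count in any library and could not be tested. The gene filter thus changed as well. Other settings gave 957 without a filter, 747 with at least 10 counts in every library, and 905 without both digital extensors. Leaving out 1 muscle gave 695 (without the supraspinatus) to 1019 (without the extensor digitorum communis). The exact p of region against group was 0.153 with the longissimus counted as hindlimb, 0.131 with the extensor digitorum lateralis counted outside it, and 0.00905 to 0.0498 with 1 muscle left out. The hindlimb count moved from 1 to 83 with DESeq2, where 11392 genes were tested in place of 13017. With group in the model it was 0 of 12738 genes (546 at an unadjusted p below 0.05), where the 1 DEG itself was not fitted because the filter differed. This whole comparison was chosen after seeing the data. PRKACA kept its call in 26 of 26 settings (log2FC 1.16 to 1.31). JARID2 lost it also without the infraspinatus (0.57), and JARID2 (0.58) and NOTCH1 (0.57) without both digital extensors. Calls were gained in 6 settings by NDUFV1, in 6 by IRS2 and in 5 by CPT1A. With region as a covariate, NDUFV1 (0.63) and CPT1A (0.60) were past the fold threshold but not called. The same held for NDUFV1 outside the hindlimb (0.77). No paired analysis was possible because the replicate numbers only count muscles within a group. Every value rests on 1 horse with 1 library per muscle.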
